A study of Mus musculus with 6 samples.

Results

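Hedgehog signalling was followed through 9 genes in J1, a line of mouse embryonic stem cells, carrying a hairpin against Jmjd1c or a non-targeting hairpin. The genes are the receptor Ptch1, the signal transducer Smo, the co-receptor Boc, the decoy receptor Hhip, the inhibitor Sufu, the transcription factors Gli1, Gli2 and Gli3, and the ciliary gene B9d1. All array probe sets annotated to one of these symbols alone were taken, 23 of 45037 without controls, for 9 of 18193 genes. They were chosen by their signals in knockdown against control arrays, the same arrays described here, so those differences are given as a description, without p-values. Only the difference between the hairpins is read as a test for them.

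The groups were J1 cells infected with shJmjd1c#3 (called sh3), with shJmjd1c#4 (sh4), or with shNT, the non-targeting hairpin, all in the lentiviral vector pLKO.1 and all selected with puromycin at 1.5 ug/ml for 2 days. Selection began the day after infection, and 4 more days of culture followed on gelatin-coated plates, in medium holding 15% serum and 1000 U/ml LIF, a cytokine that maintains pluripotency. Each group had 2 arrays from biological duplicates, so 6 arrays in all limit the precision. The labels name drug selection and no cloning of cells, and a hairpin lowers a transcript without deleting the gene.

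In vertebrates a Hedgehog ligand binds Ptch1 and ends its inhibition of Smo, which then acts in the primary cilium. Sufu holds the Gli proteins in check. Active Gli2 turns target genes on, Gli3 acts mostly as a repressor, and Gli1, Ptch1 and Hhip are themselves targets, so that their transcripts are read as signs of pathway activity, with Ptch1 and Hhip feeding back to dampen it. B9d1 is a B9-domain protein of the ciliary transition zone, the gate at the base of the cilium that keeps signalling proteins inside.

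Jmjd1c itself, a member of the JmjC histone demethylase family, was measured by 3 probe sets that disagreed. The brightest, 1426900_at, read 4541 and 4984 in sh3, 3274 and 4215 in sh4, and 6060.3 and 5516 in shNT, so all knockdown arrays lay below both controls. At 1448049_at and 1439998_at the knockdown signal was 191% and 172% of control. The groups are called knockdown by their labels. Signal at the 3' end of Actb over that at its 5' end was 2.26 to 2.40 in sh3, 2.80 to 2.81 in sh4 and 2.70 to 2.77 in shNT. The 18S ribosomal control at its 3' end read 6177 and 5333 in sh3, 3712 and 5013 in sh4, and 8139.7 and 6875 in shNT. All knockdown arrays were below both controls there and at its middle probe set. At its 5' end the groups overlapped, with 9437 in sh3 replicate 1 and 8517 in shNT replicate 2. The part of the 18S signal in the results was not tested. Among stem cell markers, Pou5f1 read 9281 to 10932 in the knockdown arrays and 9069 to 11587 in shNT, while Sox2 read 12259 to 13604 in the knockdown arrays and 15944 to 16069 in shNT.

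Promoter windows were at hand for 7 of the 9 genes, from 250 bases before to 50 after the transcription start (RefSeq, GRCm38.p6). Of these, 3 are shown: a lower target and feedback gene, a lower transcription factor and the higher ciliary gene, each holding a marked match. Ptch1, also a lower target and feedback gene, held no match to the Gli core named next and is not shown. Capitals mark GGGTGG or its reverse complement CCACCC, the core of the Gli binding site, in Hhip (chr8:80057959-80058258, minus strand) and Gli2 (chr1:119053570-119053869, minus strand). In B9d1 (chr11:61504894-61505193, plus strand) they mark a match to a loosened X-box, defined after the sequences.
Hhip: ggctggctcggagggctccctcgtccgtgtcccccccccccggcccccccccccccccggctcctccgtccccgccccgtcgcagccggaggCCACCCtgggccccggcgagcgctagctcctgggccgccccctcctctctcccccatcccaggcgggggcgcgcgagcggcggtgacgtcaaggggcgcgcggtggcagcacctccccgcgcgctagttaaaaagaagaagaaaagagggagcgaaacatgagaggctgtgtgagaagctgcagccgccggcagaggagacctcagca
Gli2: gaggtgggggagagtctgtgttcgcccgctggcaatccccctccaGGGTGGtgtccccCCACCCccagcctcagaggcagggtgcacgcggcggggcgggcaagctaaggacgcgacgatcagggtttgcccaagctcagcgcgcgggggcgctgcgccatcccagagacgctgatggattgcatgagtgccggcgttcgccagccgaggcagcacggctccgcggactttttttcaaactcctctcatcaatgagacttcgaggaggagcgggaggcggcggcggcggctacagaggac
B9d1: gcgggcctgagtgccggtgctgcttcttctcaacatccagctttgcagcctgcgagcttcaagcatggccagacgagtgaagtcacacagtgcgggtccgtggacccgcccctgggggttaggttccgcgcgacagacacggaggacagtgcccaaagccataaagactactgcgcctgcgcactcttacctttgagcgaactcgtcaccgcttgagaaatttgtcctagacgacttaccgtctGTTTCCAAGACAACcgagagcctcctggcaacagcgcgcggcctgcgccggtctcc

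The full Gli site TGGGTGGTC, searched on both strands, was found in 0 of the 7 windows and in 0.253% of 32851 mouse promoter windows. Its core of 6 letters, which lies inside the full site, was found in 4 of the 7 (Gli2, Gli3, Hhip and Smo) and in 31.5% of all windows. The X-box (GTTNCC and GGNAAC with 2 free bases between them), bound by RFX factors at many ciliary genes, was in 0 of the 7 and in 0.451% of all windows. A looser form with 1 fixed letter fewer (GTTNCC and GNNAAC with the same spacing), chosen after the B9d1 sequence was read, takes in every X-box and was in 0.673% of all windows and in 1 of the 7. In B9d1 it starts 6 bases before the transcription start. The 7 windows held 56.3% to 76.3% G and C, against a median of 52.7% over all windows, and 12 to 47 CpG dinucleotides against a median of 7. These matches describe letters in a window, not binding.

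Gli1, Gli2, Ptch1 and Hhip were lower in knockdown cells, and Gli3 and B9d1 were higher. Smo, Sufu and, at its brightest probe set, Boc overlapped control. For the brightest probe set of each gene, the knockdown signal was 36.9% of control for Hhip, 44.0% for Gli1, 69.5% for Ptch1 and 71.8% for Gli2. It was 151% for Gli3, 174% for Boc and 229% for B9d1, and 121% and 112% for Smo and Sufu. By the brightest probe set of each gene, 4 of the 9 had all knockdown arrays below both controls (9.54% of all genes tested did) and 2 had them above (11.2%). Over the 23 probe sets, 7 had all 4 knockdown arrays below both controls (7.62% of all probe sets did) and 4 had them above (9.66%). The remaining 12 overlapped.

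**Figure D1:**
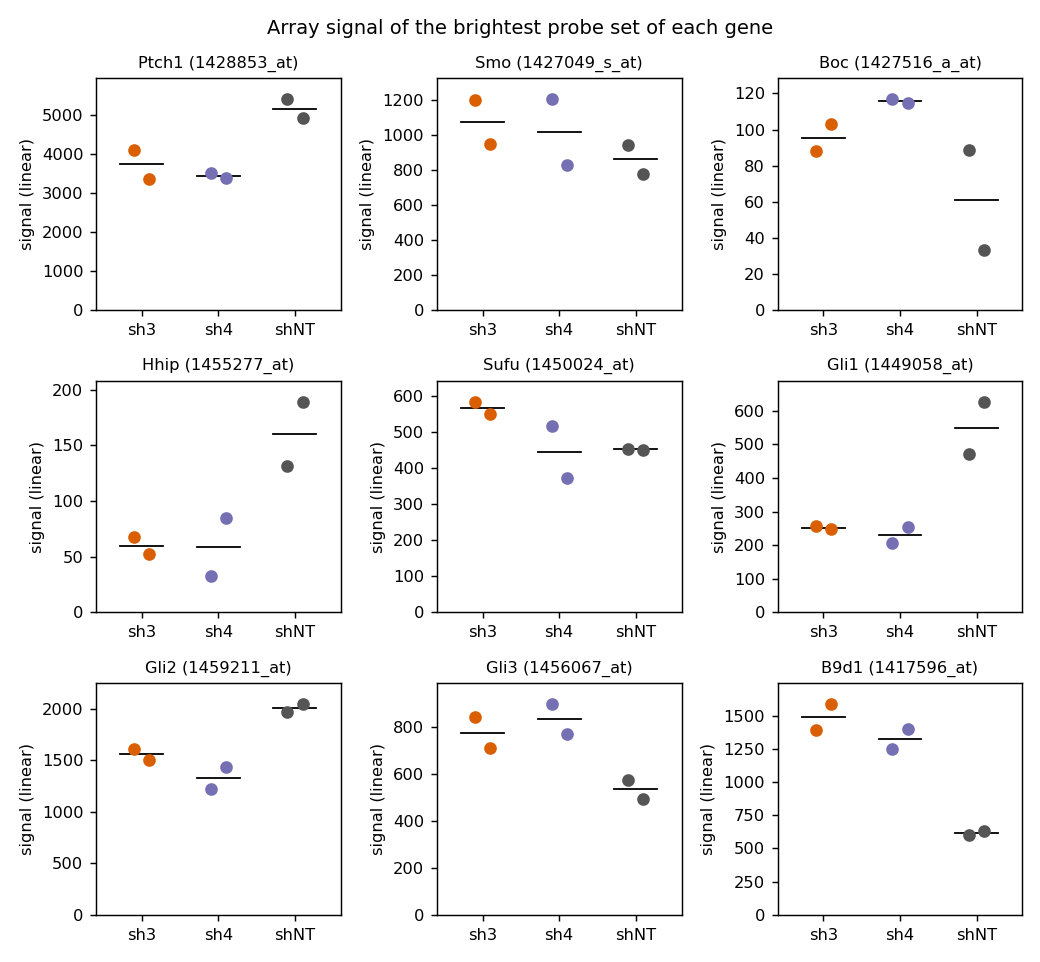
Array signal on a linear scale (vertical axes, each starting at 0) of the brightest probe set of each gene in sh3, sh4 and shNT cells. Points are the 2 arrays of a group and lines their mean; Gli1, Gli2, Ptch1 and Hhip lie below both controls in all 4 knockdown arrays, and Gli3 and B9d1 lie above them.

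Gli1, the transcription factor whose own transcript is a classical readout of the pathway, had 1 probe set, 1449058_at. It read 256 and 248 in sh3, 208 and 255 in sh4, and 472 and 626 in shNT. The groups did not overlap, and on the linear scale the 4 knockdown arrays lay closer together than the controls did. The knockdown mean was 242 ± 22.9 (SD, n = 4) against 549 ± 109 in shNT (SD, n = 2), a difference of -1.12 on the log2(signal + 16) scale (SE 0.19). The value was -1.06 in sh3 and -1.19 in sh4.

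Ptch1, the ligand receptor, was measured at very different brightness by 3 probe sets. The brightest, 1428853_at, read 4101 and 3350.2 in sh3, 3496 and 3368 in sh4, and 5389 and 4903 in shNT. All 4 knockdown arrays were below both controls, with a log2 difference of -0.53 (SE 0.12). Probe set 1439663_at read 50.8 and 41.9 in sh3, 64.8 and 62.8 in sh4, and 83.0 and 63.7 in shNT, a log2 difference of -0.33 (SE 0.33), with sh4 replicate 1 inside the control range. The dimmest, 1450824_at, stayed at or under 31.3 on every array, near the 27.8 that a bacterial control absent from the samples reached, and no difference is read.

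Hhip, the membrane protein that binds and sequesters Hedgehog ligands, had 4 probe sets, all of low signal and all with a lower knockdown mean. The brightest, 1455277_at, read 67.5 and 52.0 in sh3, 32.4 and 84.4 in sh4, and 131 and 189 in shNT. The groups did not overlap, and the log2 difference was -1.26 (SE 0.38). At 1421426_at the arrays read 51.6 and 20.5 in sh3, 41.5 and 69.3 in sh4, and 62.5 and 119 in shNT, so sh4 replicate 2 lay inside the control range.

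Probe set 1437933_at of Hhip read 12.2 and 11.0 in sh3, 4.43 and 13.2 in sh4, and 62.3 and 78.4 in shNT. Every knockdown array was below the 27.8 of the absent bacterial control, so the knockdown level is known only as dim and the size depends on the pseudocount: the log2 difference was -1.73 (SE 0.35), and -2.76 and -0.86 with pseudocounts of 1 and 64. At 1438083_at, with 8.71 and 3.45 in sh3, 13.3 and 45.8 in sh4, and 51.0 and 50.1 in shNT, it was -1.12 (SE 0.40), and -1.98 and -0.51 with pseudocounts of 1 and 64. Here sh4 replicate 2 stood close to control while the other knockdown arrays were dim.

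Gli2, the main activator of the family, was measured by a pair of probe sets that the platform annotation ties to the same sequence record, so they may not be independent. The brighter, 1459211_at, read 1609.5 and 1507 in sh3, 1219 and 1439.9 in sh4, and 1976 and 2045 in shNT. The control arrays lay close together and every knockdown array was below them, at a log2 difference of -0.48 (SE 0.12). At 1446086_s_at, whose suffix marks a probe set that may match other transcripts, the difference was -0.50 (SE 0.18), and the highest knockdown array (551) came just under the lower control (558).

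Gli3, mostly a repressor of the same targets, went the other way. Probe set 1456067_at read 841 and 710.4 in sh3, 895 and 771 in sh4, and 575 and 493 in shNT, a log2 difference of 0.58 (SE 0.14). Probe set 1455154_at read 584 and 557 in sh3, 569.9 and 481 in sh4, and 408 and 369 in shNT, a difference of 0.48 (SE 0.15). At both, every knockdown array exceeded both controls. The third, 1450525_at, ranged from 12.3 to 69.1 in knockdown arrays and from 2.39 to 48.8 in shNT, and was too dim to place Gli3.

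Smo, the transmembrane transducer, overlapped control at each of its 3 probe sets. The brightest, 1427049_s_at, read 1201 and 947 in sh3, 1203 and 829.7 in sh4, and 945 and 777 in shNT, a log2 difference of 0.26 (SE 0.18). In every group the array of replicate 1 was the higher one. Probe set 1427048_at differed by 0.21 (SE 0.23), and 1442215_at was at or under 23.4 on all arrays.

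Sufu, the cytoplasmic inhibitor of Gli proteins, overlapped control as well. Probe set 1450024_at read 584 and 551 in sh3, 518 and 373 in sh4, and 454 and 450.4 in shNT, a log2 difference of 0.14 (SE 0.17). Both sh3 arrays were above the controls while those of sh4 lay on either side of them. The dimmer 1431713_at and 1420848_at gave -0.50 (SE 0.37) and 0.55 (SE 0.50), so the probe sets of Sufu disagreed in sign and each overlapped control.

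Boc, a cell surface co-receptor for Hedgehog ligands, had 3 probe sets of low signal, and a higher knockdown mean at the 2 that exceeded the absent bacterial control. The brightest, 1427516_a_at, read 87.9 and 103 in sh3, 117 and 115 in sh4, and 88.5 and 33.1 in shNT. Control 1 lay within the sh3 range, and the log2 difference of 0.76 (SE 0.37) became 1.30 without control 1 and 0.21 without control 2. Probe set 1426869_at read 61.8 and 48.0 in sh3, 45.6 and 57.6 in sh4, and 34.6 and 7.98 in shNT, without overlap. Its log2 difference was 0.99 (SE 0.41), and 1.52 and 0.45 without control 1 and control 2. At 1427517_at every array was at or under 27.6, below that control's 27.8, and no difference is read.

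B9d1 was higher in all 4 knockdown arrays. Its probe set 1417596_at read 1389.6 and 1584 in sh3, 1249.75 and 1401 in sh4, and 598 and 629.6 in shNT. The lowest knockdown array was well clear of the higher control. The knockdown mean was 1406 ± 137 (SD, n = 4) against 614 ± 22.5 in shNT (SD, n = 2), a log2 difference of 1.17 (SE 0.12), with 1.25 in sh3 and 1.09 in sh4. B9d1os, the transcript annotated opposite B9d1 and named here after its values were seen, read 18.8 to 36.5 in knockdown arrays and 14.7 to 42.7 in shNT. It was below the filter and near the 27.8 of the absent bacterial control, so no difference is read.

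**Figure D2:**
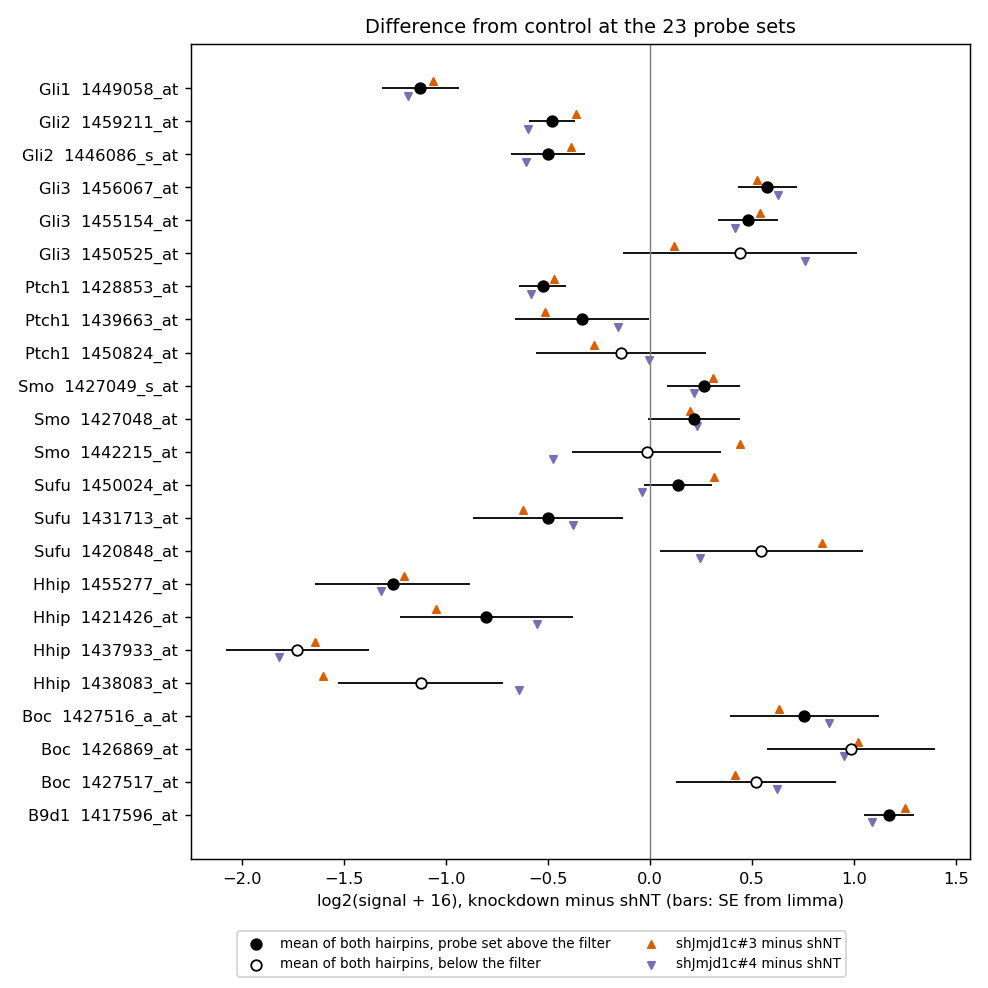
Difference between knockdown and shNT arrays on the log2(signal + 16) scale (horizontal axis) for all 23 probe sets. Circles are the mean of both hairpins with SE bars, open where the probe set was below the filter on dim signal; triangles are each hairpin, and all 4 probe sets of Hhip lie left of 0 while B9d1 and both brighter probe sets of Gli3 lie right of it.

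Differences taken within a replicate number were of 1 sign for the brightest probe sets of Gli1, Gli2, Gli3, Ptch1, Hhip, Smo and B9d1. For all of these but Smo, every knockdown array lay on the same side of both controls, so 1 sign was fixed in advance. The differences are given for their size only. For Gli1 they ran from -0.84 to -1.28, for Ptch1 from -0.39 to -0.62, for Hhip from -0.82 to -1.61 and for Gli2 from -0.29 to -0.69. For Gli3 they ran from 0.51 to 0.63 and for B9d1 from 1.04 to 1.31. Boc was at -0.01 for sh3 replicate 1 and at 1.42 for sh4 replicate 2, which shows how far its value rested on which control was used. Sufu was at 0.35 for sh3 replicate 1 and -0.26 for sh4 replicate 2.

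In limma's fit over 12684 genes, with 1 probe set per gene and a filter on dim signal, 2 of the 9 genes (Gli1 and B9d1) were among the calls for the mean of both hairpins against shNT, where 0.725% of genes were called (0.56% higher and 0.166% lower). With the replicate number as a block, 6 of the 9 (2 higher and 4 lower) were among the calls, where 5.6% of genes were called (3.33% higher and 2.26% lower). Over 45037 probe sets with no filter, 1 of the 23 (B9d1) was among the calls, where 0.0422% were called, and 4 with the block (Gli1, Gli3, Ptch1 and B9d1), where 1.03% were. The choice of genes used this contrast, so the counts are a description only. In all, 9 of the 9 genes passed the filter through their brightest probe set, and 15 of the 23 probe sets did.

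The difference between the hairpins was not used to choose the genes, and was tested at every probe set. None of the members passed the test between sh4 and sh3: 0 of 23 probe sets passed by limma over 45037 probe sets, with or without the replicate block, and 0 had an unadjusted p under 0.05. Over all probe sets 0% were called, and 0.00222% with the block, and over genes 0% and 0.418%. The adjusted p of the 23 ran from 0.973 to 0.997 by limma. At the brightest probe sets, sh4 minus sh3 gave -0.12 for Gli1 (95% interval -0.61 to 0.37), -0.11 for Ptch1 (-0.41 to 0.19) and -0.11 for Hhip (-1.11 to 0.89). It was -0.23 for Gli2 (-0.53 to 0.07), 0.10 for Gli3 (-0.28 to 0.48) and -0.16 for B9d1 (-0.48 to 0.16). For Smo it was -0.09 (-0.56 to 0.38), for Sufu -0.36 (-0.79 to 0.08) and for Boc 0.25 (-0.71 to 1.20). The intervals of Hhip and Boc leave room for differences of 1 log2 unit between the hairpins, and those of Gli2, Gli3, Ptch1 and B9d1 are narrower. The order of sh3 and sh4 is thus not resolved for any of the 9 genes.

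**Figure D3:**
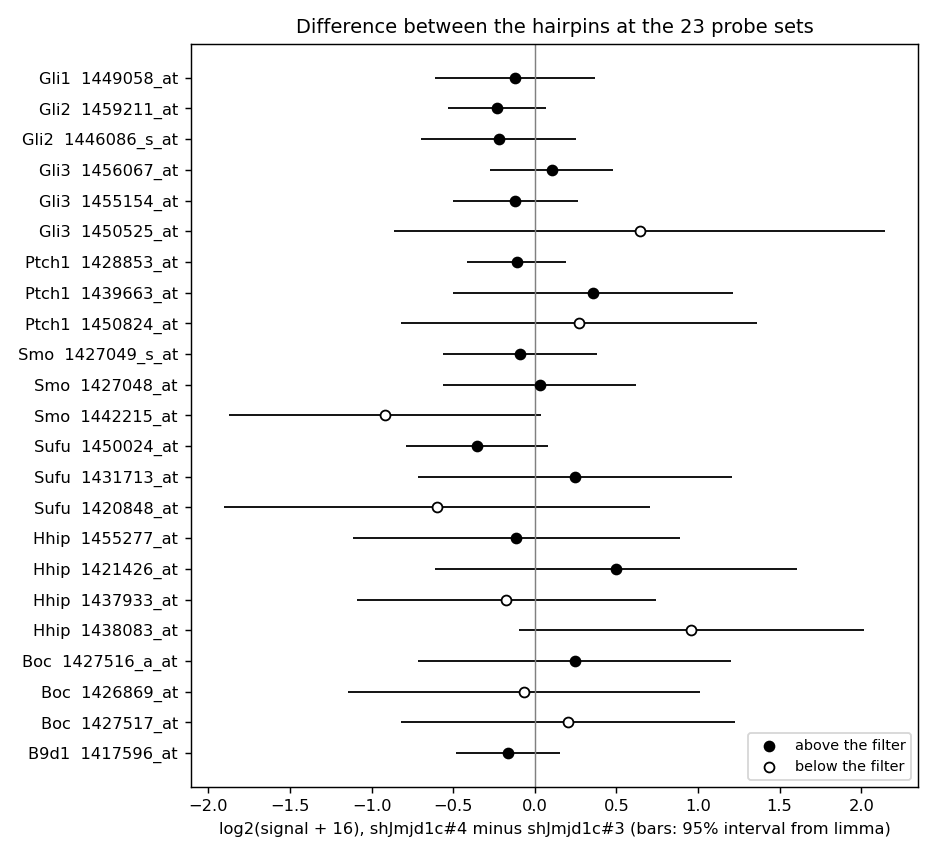
Difference sh4 minus sh3 on the log2(signal + 16) scale (horizontal axis) at the 23 probe sets, with 95% intervals from limma as bars and open circles below the filter on dim signal. Every interval includes 0, and the dim probe sets have the widest.

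Lists of further genes are given here and below. They were chosen with earlier results of these data known, so their calls and p-values against shNT are a description only. The Hedgehog ligands themselves were at the dim end of the array. Shh read 3.50 to 62.5 in knockdown arrays and 7.11 to 45.1 in shNT, and Ihh 31.8 to 57.5 in knockdown arrays and 22.96 to 51.3 in shNT. Dhh read 27.8 to 67.2 in knockdown arrays and 19.6 to 37.9 in shNT. These 3 ligands were below the filter, and 4 of 9 ligand and release genes were tested. Of these, 0 passed by limma and 1 had an unadjusted p under 0.05: Hhat, the acyltransferase that palmitoylates the ligand, at 0.80 (SE 0.30, adjusted p = 0.32 by limma). The release proteins Disp1, Scube2 and Scube3 were at -0.07, 0.22 and -0.31, none of them called. Scube1, a related secreted protein that was below the filter and is named after its values were seen, read 15.0 and 12.5 in sh3, 14.7 and 27.9 in sh4, and 108 and 67.0 in shNT. All 4 of its knockdown arrays lay below both controls, near the 27.8 of the absent bacterial control, and it was not tested.

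Among 24 tested genes of reception and transduction, 1 rose and 0 fell by limma (background 0.56% higher and 0.166% lower). Lrp2, also called megalin, an endocytic receptor that binds Sonic hedgehog, read 991 and 859.98 in sh3, 993 and 777 in sh4, and 466 and 324 in shNT. Every knockdown array was above both controls, and Lrp2 rose by 1.18 on the log2 scale (SE 0.18, adjusted p = 0.0361 by limma over all genes). The call was lost with the mean of its probe sets (0.82, adjusted p = 0.23 by limma) and without shNT replicate 2 (0.93, adjusted p = 0.141 by limma), either sh3 array or sh4 replicate 1 (adjusted p of 0.0739 to 0.0931 by limma), and also without the filter or the intensity trend. Prkacb, a catalytic subunit of protein kinase A, Evc2, which tethers Smo near the ciliary base, and Gnas, the stimulatory G protein alpha subunit, were at -0.51, -0.44 and 0.25 (adjusted p = 0.245, 0.299 and 0.312 by limma). The median of the 24 was 0.05, against 0.01 over all 12684 genes.

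Of 20 other genes known as Hedgehog targets in various tissues, 11 were tested. Their differences were positive for 8 of 11, beside 6554 of all 12684 genes, and their median was 0.30. By limma 0 passed, while 3 had an unadjusted p under 0.05, beside 1559 of all 12684 genes. Ccnd2, a G1 cyclin, read 463 and 427 in sh3, 1172 and 824 in sh4, and 362 and 270.2 in shNT. All knockdown arrays exceeded both controls, most of all those of sh4, and its log2 difference of 1.04 (SE 0.19) missed the threshold (adjusted p = 0.051 by limma) but passed with the replicate block (adjusted p = 0.00119 by limma). Between the hairpins, sh4 minus sh3, it differed by 1.12 (adjusted p = 0.402 by limma, and 0.0168 with the block). Cdk6, a G1 kinase, was at 0.55 (SE 0.16, adjusted p = 0.207 by limma, and 0.0279 with the block). The cyclin Ccnd1 and the forkhead factor Foxf1 were at 0.24 and 0.84 (adjusted p = 0.4 and 0.424 by limma), and Foxf1 was at 0.39 and 1.28 without shNT replicate 1 and shNT replicate 2. Nr2f2 and Sfrp1, named after their values were seen, were at -0.94 and -0.54 in sh3 and at 1.09 and 0.23 in sh4. Tissue-specific targets such as Foxa2, Nkx2-2, Nkx6-1 and Olig2, which mark the ventral neural tube, were below the filter. Of these, Foxa2 read 19.1 and 22.3 in sh3, 66.7 and 65.8 in sh4, and 24.1 and 9.12 in shNT, highest in the sh4 arrays, where the sum of primitive endoderm markers was also higher; it was not tested.

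For the cilium, 1 of 17 tested transition zone genes fell and 0 rose by limma. Mks1, a B9-domain protein of the same complex as B9d1, read 669 and 578 in sh3, 561 and 548 in sh4, and 949 and 1040.4 in shNT. It fell by 0.74 on the log2 scale (SE 0.13), with no overlap between groups. The adjusted p of Mks1 by limma was 0.00529 with the replicate block, and 0.0498 without it, just inside the threshold. With 1 array left out, whichever it was, Mks1 was at -0.68 to -0.81 and not past it (adjusted p of 0.0881 to 0.235 by limma). B9d2, the remaining B9-domain gene, named after its values were seen, was at 0.10 (SE 0.23, adjusted p = 0.91 by limma), so the B9 genes were at 1.17, -0.74 and 0.10. Iqcb1, Invs and Nphp4, of the nephrocystin modules, were at -0.36, 0.59 and 0.28 (adjusted p = 0.285, 0.492 and 0.698 by limma). Invs was at 0.06 and 1.13 without shNT replicate 1 and shNT replicate 2, and the median of the 17 was -0.04.

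The genes of intraflagellar transport and ciliogenesis, 28 tested, had 0 calls by limma, with 2 at an unadjusted p under 0.05. They split into 14 positive and 14 negative values, from -0.41 to 0.45, around a median of 0.00. Dync2h1, the motor for retrograde transport, was at 0.45, Ift52 at -0.36, Tulp3, which brings membrane receptors into the cilium, at 0.33, and Wdr19 at -0.41 (adjusted p of 0.356 to 0.475 by limma). Over all 5 lists, 2 of 84 tested genes passed, against the background of 0.725%. With the replicate block 3 rose and 1 fell, against 5.6% of genes called.

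**Figure D4:**
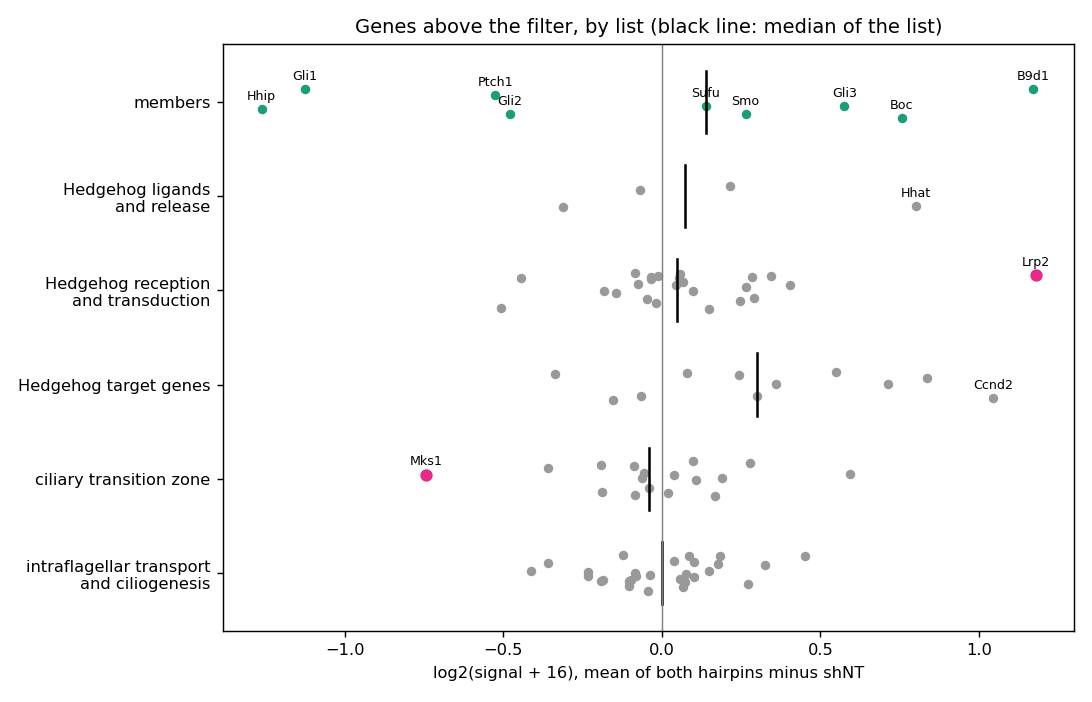
Difference of the mean of both hairpins from shNT on the log2(signal + 16) scale (horizontal axis) for the tested genes of each list, with vertical lines at the list medians. Pink points, Lrp2 and Mks1, passed limma's adjusted threshold; the 9 genes described above (green) were chosen by this contrast and are shown as a description, and they span from -1.26 to 1.17 while transport genes lie between -0.41 and 0.45.

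Marker lists of several cell types were set beside these values. For their counts at an unadjusted p under 0.05 by limma, the background was 1559 of all 12684 genes. The summed signal of 9 stem cell markers was 88237 and 94824 in sh3, 95225 and 101583 in sh4, and 103718 and 124256 in shNT, with 0 of 9 called by limma, 2 at an unadjusted p under 0.05, and 4 lower with the replicate block (Esrrb, Nanog, Sox2 and Dppa5a). Of the 9, 8 had a negative difference; Esrrb, at -0.77, and Sox2, at -0.33, had all knockdown arrays below both controls. The summed signal of 13 fibroblast markers was 3065 and 3149 in sh3, 3768 and 3840.3 in sh4, and 2499 and 2474 in shNT. Of 8 tested, 1 (Col3a1) rose by limma, and 2 with the replicate block (Col3a1 and Dcn). Dcn read 41.4 to 113 in knockdown arrays and 10.9 to 11.7 in shNT. The sum was higher in every knockdown array, and Fstl1, its brightest member, read 1876 to 2482 in knockdown arrays and 1685 to 1909.9 in shNT. Singly, 4 of the 8 tested markers had all knockdown arrays above both controls (Col3a1, Col5a1, Dcn and Twist1), and the other 4 overlapped.

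The summed signal of 9 primitive endoderm markers was 1313 and 1293 in sh3, 2821 and 2345 in sh4, and 1303 and 1395 in shNT. By limma 0 of 9 were called, 4 had an unadjusted p under 0.05, and 2 were higher with the replicate block (Cubn and Dab2). The sum was higher in sh4 alone. Sox17, the single marker of the 9 with all knockdown arrays above both controls, read 65.6 and 62.0 in sh3, 261 and 160 in sh4, and 59.2 and 45.9 in shNT. Gata6 was at -0.35 in sh3 and 0.65 in sh4, and Gata4 at 0.13 in sh3 and -0.24 in sh4. The summed signal of 7 neural progenitor markers was 1767 and 1477 in sh3, 2001 and 1481 in sh4, and 1214 and 873 in shNT. Of 5 tested, 1 (Nes) rose by limma, and Nes read 567 to 808 in knockdown arrays and 211 to 291 in shNT. Nes and Pax3 had all knockdown arrays above both controls, and the others tested overlapped. Among those, Sox1 was at -0.93 in sh3 and 0.54 in sh4, and Pax6 at 0.35 in sh3 and 0.17 in sh4. The part of these cells in the values of the Hedgehog genes was not tested, and fewer cells with a transcript cannot be told apart from less of it per cell. The log2 difference from shNT of Gli1 was -1.06 in sh3 and -1.19 in sh4, and that of B9d1 was 1.25 in sh3 and 1.09 in sh4. The primitive endoderm sum was higher in sh4 alone. In the arrays of both hairpins the fibroblast and neural progenitor sums were higher and the stem cell sum lower than in shNT.

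The genes whose profile over the 6 arrays came closest to that of Gli1, by the root mean square difference of centred log2 values, were Adgre5 (0.105), Pga5 (0.141), Arhgef15 (0.143), Dppa3 (0.154) and Frat2 (0.155). Symbols that start with Gm and a digit or end in Rik were passed over, here and for B9d1. Adgre5, an adhesion receptor, read 1115 and 977 in sh3, 860.2 and 1062 in sh4, and 1887 and 2099 in shNT. Dppa3, a gene of naive stem cells and germ cells, read 1209 and 1477 in sh3, 1311 and 1492 in sh4, and 2353 and 2946 in shNT. All of the 5 had both controls above the knockdown arrays. They were picked for closeness to Gli1, so this shared pattern follows largely from the choice.

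Closest to B9d1 were Lats2 (0.0952), Gpc4 (0.124), Nrgn (0.138), Plagl1 (0.143) and Hs6st2 (0.144). Lats2, a kinase of the Hippo pathway, read 310.3 and 358 in sh3, 231 and 296 in sh4, and 108 and 122 in shNT. Gpc4, a glypican, read 1063 and 1283 in sh3, 962 and 989.6 in sh4, and 562 and 484 in shNT. In both, as in B9d1, the sh3 mean was above the sh4 mean, and the controls were lowest. This too follows largely from picking genes for closeness to B9d1.

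**Figure D5:**
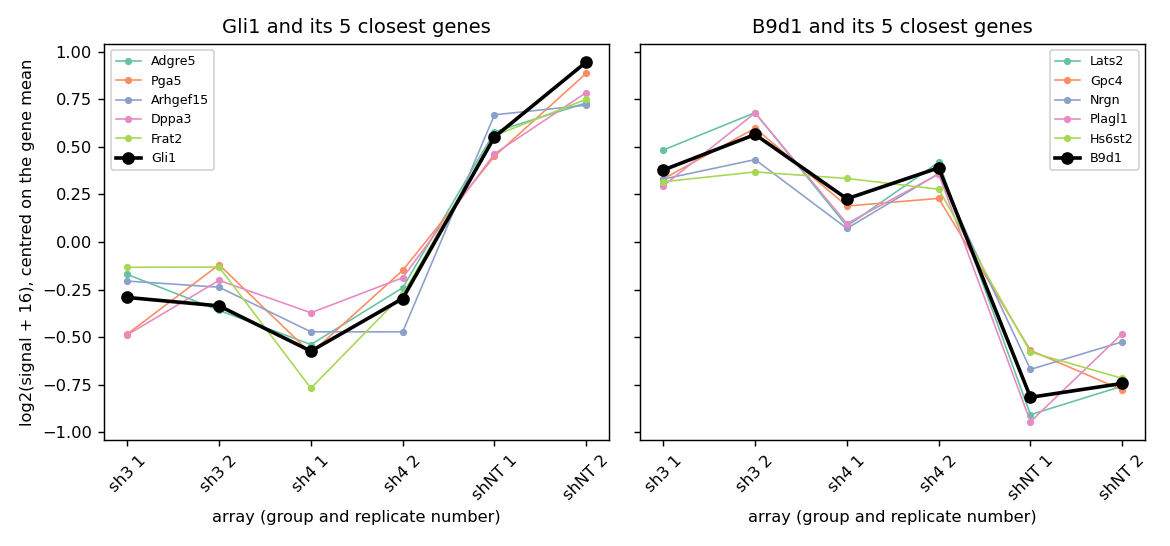
Centred log2(signal + 16) (vertical axis) over the 6 arrays (horizontal axis) for Gli1 and B9d1 (black) and the 5 genes closest to each. Lines only join the arrays. The Gli1 set is high in both shNT arrays and the B9d1 set is low there, which follows largely from choosing by closeness.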

How the data were processed

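Total RNA (6 ug per sample) was hybridized to Affymetrix mouse expression arrays, per the labels' protocols, with a separate array for each sample. The deposited values are signal intensity on a linear scale, made by the authors with MAS5, as the submitters' processing notes name it without a version. The mean of the middle of the distribution was 500.003 on each array, so they had been scaled per array, and were used as deposited. Symbols came from the platform annotation: of 45101 probe sets, 64 were controls, 34945 had 1 symbol, 932 several and 9160 none, and genes were named only from probe sets with 1 symbol.

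Signals were transformed to log2(signal + 16), a scale that understates changes of dim genes. Each gene was represented by its brightest probe set on average, kept if at or above the 40th percentile (a signal of 40.1), which left 12684 of 18193. A model of 3 group means over the 6 arrays (residual df 3) was fitted with limma 3.58.1 under R 4.3.3, using an intensity trend and 2-sided tests; p-values were adjusted by Benjamini-Hochberg over all genes with a threshold of 0.05, or over 45037 probe sets with no filter for the members. The pipeline was tested on simulated data.

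Named genes were the 9 members, up to 4 genes with the smallest p in each list, the 5 closest profiles of Gli1 and B9d1, Jmjd1c, and defining markers. The members and lists were chosen with earlier results of these data known. Replicate numbers come from the titles. After subtracting group means, arrays with the same number correlated over the 12684 genes at 0.302 (sh3 with shNT), 0.223 (sh4 with shNT) and 0.3 (sh4 with sh3). A fit with the number as a block is therefore given beside several of the results it changes. The labels do not say what the number marks, and the pairing rests on these arrays alone. The alternatives were other pseudocounts, quantile normalization, no filter, the mean of probe sets, no trend, the replicate block and leaving out each array.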

Additional observations from a re-analysis of the deposited data

Results flagged for a closer look

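Gli1 was set apart by 1 of its 4 knockdown arrays. Its probe set 1449058_at read 208 on sh4 replicate 1, against 248 to 256 on the other three, and the gap to the nearest of them was 0.8298 of the whole range of the 4 arrays, just above Dixon's critical value for 4 samples. The groups of the study hold 2 arrays each, so the arrays of both hairpins were pooled here. Chance sets apart about 1 in 20 such groups, and 23 probe sets were examined. Without that array the log2 difference of Gli1 from control was -1.06, against -1.12 with it.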

How the results depend on the processing

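The count of genes called for the mean of both hairpins against shNT, 92 by limma, was 36 without the filter, 34 with averaged probe sets, 0 without an intensity trend (1499 genes at an unadjusted p under 0.05) and 710 with the replicate block, which holds only if same-numbered samples belong together. Leaving out 1 array gave 4 to 48, with 4 without shNT replicate 2, 8 and 10 without sh4 replicate 1 and sh3 replicate 2, 26 without sh3 replicate 1, 40 without sh4 replicate 2 and 48 without shNT replicate 1; the cause was not tested. For sh4 minus sh3 the count was 0 by limma (774 at an unadjusted p under 0.05) and 53 with the replicate block. Of the 84 Hedgehog and cilium list genes, 2 were called, against 1 with a pseudocount of 1 or quantile normalization, 0 without the filter, with averaged probe sets or without a trend (14, 10 and 11 at an unadjusted p under 0.05), 4 with the replicate block and 0 to 1 without 1 array. Disp1, which was not called, turned to 0.28 without shNT replicate 2 and 0.01 without sh3 replicate 1, and Tulp3 to -0.065 with averaged probe sets.

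Of the 23 member probe sets, 19 kept their sign in all 11 alternatives, among them the brightest of each of the 9 genes. Gli1 ranged from -1.32 to -0.93, Ptch1 from -0.60 to -0.45, Gli2 from -0.54 to -0.42, Gli3 from 0.47 to 0.68, Hhip from -1.52 to -0.87 and B9d1 from 1.11 to 1.22 at the brightest probe set. The exceptions were dim probe sets: 1450525_at of Gli3 at -0.47 without shNT replicate 2, 1450824_at of Ptch1 at 0.35 and 0.10 without shNT replicate 1 and sh4 replicate 1, 1420848_at of Sufu at -0.23 without shNT replicate 1, and 1442215_at of Smo, which was at -0.02 and ranged from -0.57 to 0.53. For dim genes such as Hhip and Boc, signal over background limits what the arrays can show.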
